A study of Mus musculus with 9 samples.

Results

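The transcription factor complex built around GATA1 and TAL1, together with its corepressors, was followed through 10 genes: Gata1, Gata2, Zfpm1, Tal1, Lyl1, Lmo2, Ldb1, Cbfa2t3, Runx1t1 and Gfi1b. A probe set was taken as a member when the array platform's annotation gave it exactly one of these symbols and no other. All 10 genes were found, with 11 probe sets between them because Cbfa2t3 had 2, out of 19938 genes named by a probe set with a single symbol. All 11 probe sets passed the filter on low values, which kept 12898 of those genes.

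Expression was measured on whole-transcript arrays in erythroblasts of mouse embryos at stage E14.5, in 3 genotypes with 3 arrays each. Th3/Th3 embryos were homozygous for Th3, a beta-thalassaemia allele in which the adult beta-globin genes are deleted in every cell; Th3/+ embryos carried 1 copy; wild type embryos carried none. All were offspring of Th3/+ parents, on a 129SV background crossed for 9 generations to C57BL/6. Cells bearing CD71 and Ter119 with high forward scatter were sorted from fetal liver, and 35 ng of RNA per sample was amplified. The labels call the arrays biological replicates without stating if each came from 1 embryo or a pool, so the p-values measure the spread between these samples. As a check of the Th3/Th3 labels, a probe set shared by the adult beta-globin genes read 8.49 to 10.09 log2 units in Th3/Th3, 13.76 to 13.81 in Th3/+ and 13.81 to 13.86 in wild type. The highest Th3/+ value, 13.809, almost met the lowest wild type value, 13.812. The check therefore does little to tell Th3/+ from wild type.

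GATA1 is the zinc-finger factor that drives red cell differentiation, and it binds DNA at GATA motifs. In erythroid cells it works in a complex in which TAL1, a basic helix-loop-helix factor, pairs with an E protein to bind an E-box near the GATA motif, while LMO2 and LDB1 bridge the DNA-bound factors without touching DNA themselves. Whether the complex activates or represses a gene depends on the cofactors it carries: FOG1 (the product of Zfpm1), the ETO-family corepressors ETO2 (Cbfa2t3) and MTG8 (Runx1t1), and GFI1B, a repressor that recruits histone deacetylases and the demethylase LSD1.

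In Th3/Th3 erythroblasts 6 of the 11 probe sets fell against wild type and 0 rose: Gata1, Tal1, Lyl1, Lmo2, Runx1t1 and Gfi1b. The decline of Runx1t1 was 6.30-fold, that of Lyl1 2.15-fold, and those of the other 4 were between 1.47- and 1.57-fold. In Th3/+ erythroblasts 0 of the 11 were called against wild type, in a comparison where 0.0282% of all probe sets were called. Of all 17742 probe sets tested, 4.98% were called lower and 7.31% higher in Th3/Th3 against wild type. Of the member probe sets 54.5% were called lower, but members were chosen with earlier results of these data known. The call was an adjusted p under 0.05 from limma, adjusted by Benjamini-Hochberg over all probe sets tested.

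The promoters of 4 of the 6 genes that fell are shown because GATA1 and TAL1 are known to regulate genes of their own complex. Each run is 300 bases of RefSeq sequence (GRCm38.p6) around an annotated start, read along the gene's strand. Capitals mark 3 kinds of match: the GATA motif (GATA with A or T before it and A or G after it), the E-box CANNTG, and the composite of CTG and GATA with 8 or 9 bases between.
Gata1, chrX:7967861-7968160, minus strand: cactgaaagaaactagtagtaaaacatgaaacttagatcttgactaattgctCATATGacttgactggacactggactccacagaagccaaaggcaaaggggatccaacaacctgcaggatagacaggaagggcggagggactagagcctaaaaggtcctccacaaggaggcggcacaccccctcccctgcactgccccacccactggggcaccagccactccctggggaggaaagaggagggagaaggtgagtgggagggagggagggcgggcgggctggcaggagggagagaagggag
Tal1, chr4:115056176-115056475, plus strand: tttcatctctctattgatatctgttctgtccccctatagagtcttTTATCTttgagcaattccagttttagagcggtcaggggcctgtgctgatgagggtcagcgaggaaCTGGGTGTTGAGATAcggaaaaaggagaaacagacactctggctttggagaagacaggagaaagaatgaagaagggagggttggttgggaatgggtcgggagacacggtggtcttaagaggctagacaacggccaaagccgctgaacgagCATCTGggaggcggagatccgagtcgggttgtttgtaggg
Lyl1, chr8:84701207-84701506, plus strand: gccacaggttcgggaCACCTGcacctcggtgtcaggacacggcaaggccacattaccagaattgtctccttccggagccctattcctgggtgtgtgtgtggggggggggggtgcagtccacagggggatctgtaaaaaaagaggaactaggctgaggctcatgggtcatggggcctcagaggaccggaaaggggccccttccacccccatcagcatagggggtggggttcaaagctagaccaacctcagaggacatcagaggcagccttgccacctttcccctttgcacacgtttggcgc
Gfi1b, chr2:28621933-28622232, minus strand: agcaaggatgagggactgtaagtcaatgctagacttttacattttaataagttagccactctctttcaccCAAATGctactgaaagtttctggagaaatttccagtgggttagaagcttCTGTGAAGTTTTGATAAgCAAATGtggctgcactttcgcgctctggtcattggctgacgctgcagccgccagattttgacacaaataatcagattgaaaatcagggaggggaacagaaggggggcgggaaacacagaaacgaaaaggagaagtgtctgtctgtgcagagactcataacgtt

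Both strands were searched. The Tal1 window held a GATA motif on the other strand 205 bases before the start, a composite 140 bases before it and an E-box 10 bases after it. In the Gfi1b window the GATA motif, 120 bases before the start, overlapped a composite that began 131 bases before it, with E-boxes 180 and 113 bases before the start. The Gata1 window held 1 E-box, 198 bases before the start, and the Lyl1 window 1 E-box, 235 bases before it; neither held the letters of the GATA motif. RefSeq windows were matched for 8 of the 10 genes, 13 windows in all, and a second Tal1 window held no match to any motif searched. The GATA motif was present in 4 of the 13 windows (29.8% of all 32851 promoter windows of the same length), the E-box in 8 (72.3%), the composite in 3 (4.69%), and the motif CACCC, also searched on both strands and not capitalised, in 11 (57.5%). The third composite was in a Cbfa2t3 window. Several windows belong to 1 gene, so the 13 are not independent.

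The DNA-bound GATA factors are described next. Gata1 lies at chrX:7959260-7976663 (GRCm38.p6). Its log2 values were 9.59, 9.31 and 9.26 on the Th3/Th3 arrays, 9.76, 9.76 and 9.90 on the Th3/+ arrays, and 10.05, 9.78 and 9.99 on the wild type arrays. Every Th3/Th3 array was below every array of the other genotypes, while Th3/+ and wild type overlapped. The mean was 9.38 ± 0.18 in Th3/Th3 and 9.94 ± 0.14 in wild type (SD, n = 3 each). Against wild type, Th3/Th3 cells held 1.47-fold less Gata1 RNA (log2 difference −0.56, SE 0.13, limma adjusted p = 0.021). Against Th3/+ the difference was −0.42 and did not pass (limma adjusted p = 0.0906). The call against wild type was not stable. It was lost without Th3/Th3 replicate 2 (limma adjusted p = 0.0684), Th3/Th3 replicate 3 (0.0666), wild type replicate 1 (0.0785) or wild type replicate 3 (0.0712). It was also lost with only the Th3/Th3 and wild type arrays in the model (limma adjusted p = 0.0574). Over the 19 alternative settings the limma adjusted p ranged from 0.0112 to 0.0785. Gata1 is X-linked and the arrays differ in Xist, the RNA of the inactive X chromosome, which was high on Th3/Th3 replicates 1 and 2, Th3/+ replicate 2 and wild type replicate 1; the gene was still called with the Xist level in the model.

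Gata2 (chr6:88193891-88207032) is the GATA factor of stem and progenitor cells, and GATA1 displaces it from shared sites as erythroblasts mature. Its values were 4.67, 4.63 and 4.80 in Th3/Th3, 4.86, 4.99 and 4.80 in Th3/+, and 4.77, 4.94 and 4.66 in wild type. These lay only just above the 40th percentile of each array, the filter value, which was 4.52 to 4.62. The difference between Th3/Th3 and wild type was −0.09, with a 95% interval of −0.29 to 0.12 (limma adjusted p = 0.61). Its signal leaves little room for a measurable fall.

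Zfpm1 (chr8:122281856-122337862) encodes FOG1, which binds the amino-terminal finger of GATA1. It read 9.04, 8.40 and 8.67 in Th3/Th3, 9.04, 9.15 and 9.07 in Th3/+, and 9.22, 8.83 and 9.11 in wild type. Th3/Th3 replicate 1 reached the level of the other genotypes and replicates 2 and 3 lay below it. The difference against wild type was −0.35, with an interval of −0.74 to 0.05, and did not pass (limma adjusted p = 0.253).

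**Figure D1:**
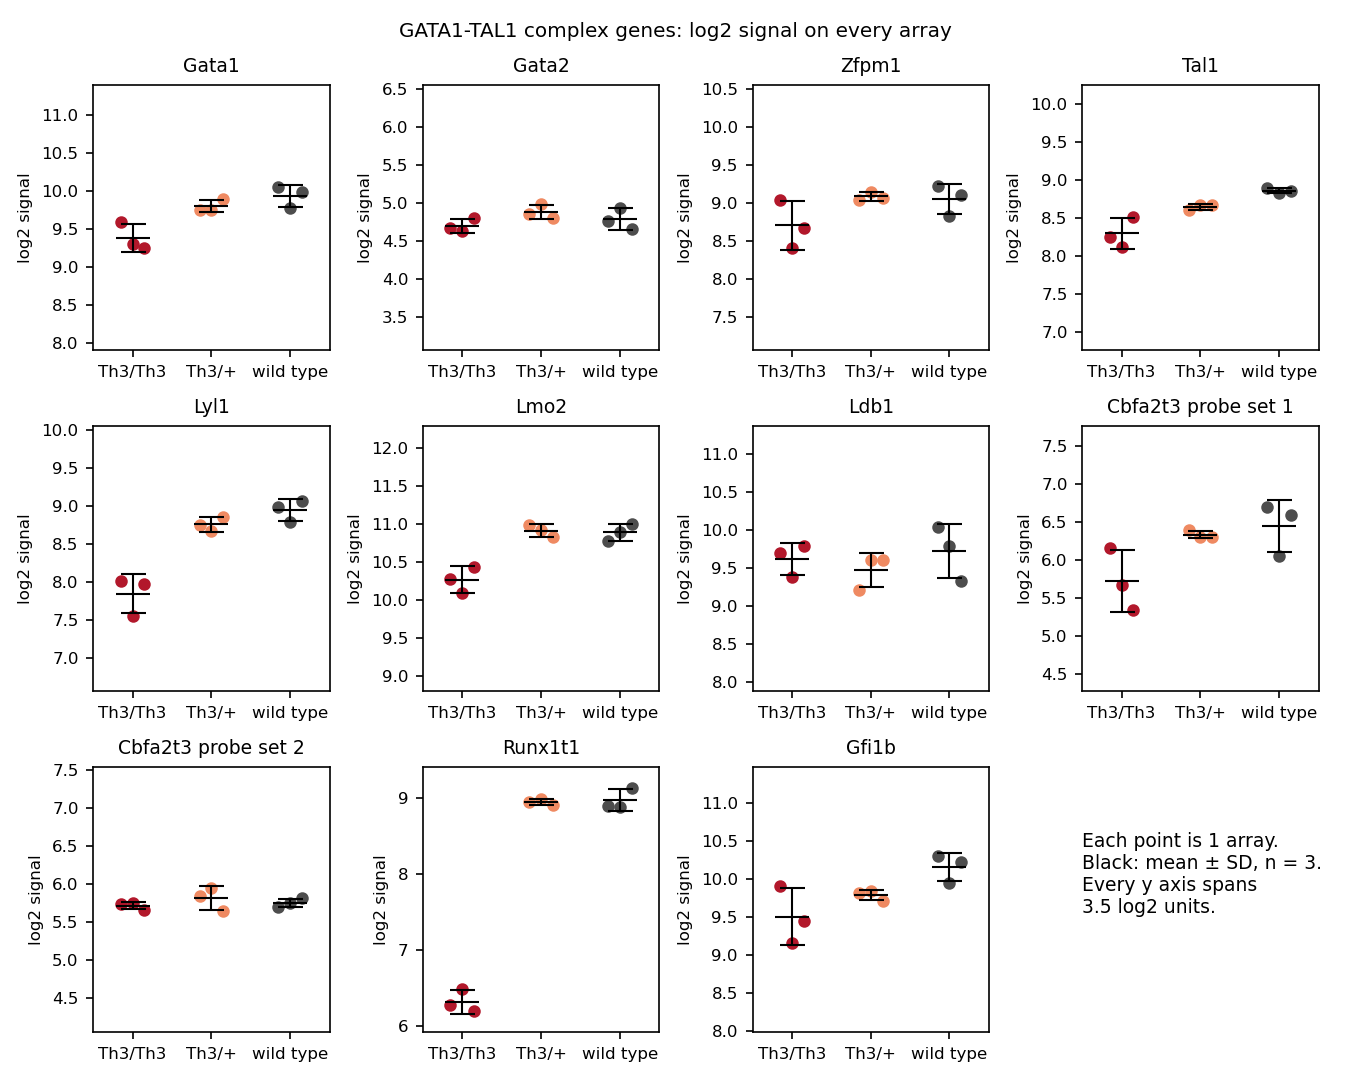
Log2 expression values of the 11 member probe sets on each of the 9 arrays, 1 panel per probe set with vertical axes of equal span; points are arrays, bars the mean ± SD (n = 3), for Th3/Th3, Th3/+ and wild type from left to right. Runx1t1 shows the widest gap, with Th3/Th3 at 6.19 to 6.49, Th3/+ at 8.91 to 8.98 and wild type at 8.89 to 9.14.

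Both helix-loop-helix factors, Tal1 and Lyl1, fell in Th3/Th3. Tal1 (chr4:115056426-115071755) read 8.25, 8.12 and 8.51 in Th3/Th3, 8.60, 8.67 and 8.67 in Th3/+, and 8.89, 8.82 and 8.86 in wild type. The 3 genotypes did not overlap, with Th3/Th3 lowest, Th3/+ between and wild type highest. Against wild type, Tal1 was 1.48-fold lower in Th3/Th3 (log2 difference −0.56, SE 0.13, limma adjusted p = 0.0191). For Th3/+ against wild type the difference was −0.21, which did not pass (limma adjusted p = 1), and for Th3/Th3 against Th3/+ it was −0.35 (limma adjusted p = 0.144). The call was lost without Th3/Th3 replicate 2 (limma adjusted p = 0.062) or without wild type replicate 1, 2 or 3 (0.0643, 0.0535 and 0.0589). It was also lost with only the Th3/Th3 and wild type arrays in the model (limma adjusted p = 0.0555). Over the alternatives the limma adjusted p ranged from 0.00812 to 0.0643.

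Lyl1 (chr8:84701423-84704716) is the close relative of Tal1 that can take its place in the complex. Its values were 8.02, 7.56 and 7.97 in Th3/Th3, 8.75, 8.67 and 8.87 in Th3/+, and 8.99, 8.79 and 9.08 in wild type. All Th3/Th3 arrays were below all others by more than the spread of any genotype, and Th3/+ overlapped wild type. Lyl1 fell 2.15-fold in Th3/Th3 against wild type (log2 difference −1.10, SE 0.15, limma adjusted p = 0.00213) and 1.88-fold against Th3/+ (−0.91, SE 0.15, limma adjusted p = 0.00802). Both calls held in all 19 alternatives. The E protein genes Tcf3 and Tcf12, whose products pair with TAL1 and LYL1, differed by −0.35 and −0.55 and did not pass (limma adjusted p = 0.193 and 0.162).

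Of the bridging proteins, Lmo2 fell in Th3/Th3 and Ldb1 did not pass the test. Lmo2 (chr2:103957903-103981878), the LIM-only adaptor between the DNA-bound factors, read 10.28, 10.10 and 10.44 in Th3/Th3, 10.99, 10.93 and 10.83 in Th3/+, and 10.78, 10.89 and 11.01 in wild type. Each Th3/Th3 array was below each array of the other genotypes. In Th3/Th3, Lmo2 was 1.54-fold lower against wild type (log2 difference −0.62, SE 0.11, limma adjusted p = 0.00651) and 1.56-fold lower against Th3/+ (−0.64, limma adjusted p = 0.00863). The call against wild type held in all 19 alternatives, and that against Th3/+ in all but the one without Th3/Th3 replicate 1 and Th3/+ replicate 1 together (0.0546, within a range of 0.00527 to 0.0546). Ldb1 (chr19:46031525-46048145), whose product dimerises and holds distant complexes together, read 9.70, 9.38 and 9.78 in Th3/Th3, 9.22, 9.60 and 9.61 in Th3/+, and 10.04, 9.79 and 9.33 in wild type. All genotypes overlapped, and the wild type arrays alone spanned the range of Th3/Th3. The difference between Th3/Th3 and wild type was −0.10, with an interval of −0.55 to 0.35 (limma adjusted p = 0.809).

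**Figure D2:**
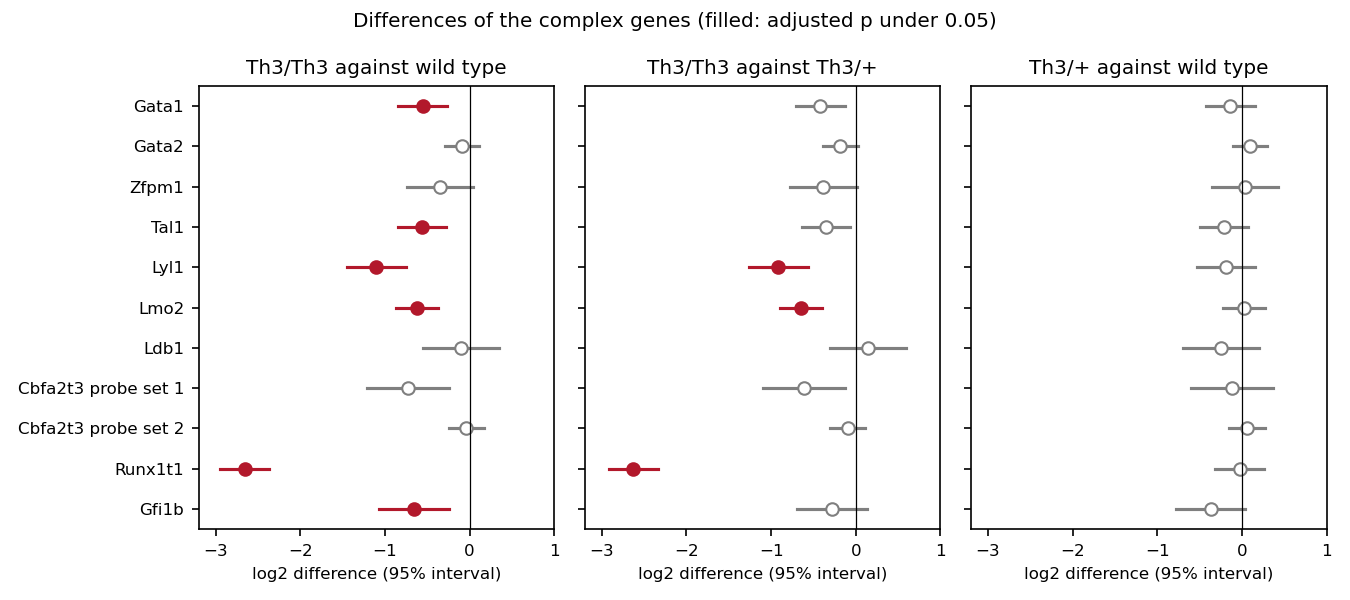
Log2 differences of the 11 member probe sets for the 3 pairs of genotypes; points are estimates from limma and bars their 95% intervals. Runx1t1 lies at −2.66 for Th3/Th3 and −0.03 for Th3/+ against wild type, and Lyl1 at −1.10 and −0.19.

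Among the corepressors, Runx1t1 gave the largest change of any member. Runx1t1 (chr4:13742628-13895056) encodes MTG8, also called ETO, first known as the fusion partner of RUNX1 in human acute myeloid leukaemia. Its values were 6.27, 6.49 and 6.19 in Th3/Th3, 8.95, 8.98 and 8.91 in Th3/+, and 8.90, 8.89 and 9.14 in wild type. The Th3/Th3 arrays stood far below all others, and Th3/+ and wild type overlapped. The Th3/Th3 level was 15.9% of wild type, a 6.30-fold fall (log2 difference −2.66, SE 0.13, limma adjusted p = 2.08e-05), and 6.19-fold below Th3/+ (limma adjusted p = 4.07e-05). Th3/+ differed from wild type by −0.03, with an interval of −0.32 to 0.26. Both calls for Th3/Th3 held in all 19 alternatives.

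The heterozygote was also set against the midpoint of the homozygous genotypes. Runx1t1 in Th3/+ lay 1.30 log2 units above that midpoint (SE 0.11, limma adjusted p = 0.00623) and was the 1 member called, where 0.0620% of all probe sets were called higher. The call was lost without Th3/+ replicate 1, 2 or 3 (limma adjusted p = 0.0658, 0.103 and 0.0546). It was also lost without Th3/Th3 replicate 1 and Th3/+ replicate 1 together (limma adjusted p = 0.163). Over 18 alternatives the limma adjusted p ranged from 0.0014 to 0.163. Lyl1 and Lmo2 lay 0.36 and 0.33 above their midpoints and were not called (limma adjusted p = 0.51 and 0.314).

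Cbfa2t3 (chr8:122625136-122699332), which encodes ETO2, was read by a pair of probe sets that disagreed. One gave 6.16, 5.68 and 5.35 in Th3/Th3, 6.40, 6.31 and 6.31 in Th3/+, and 6.70, 6.06 and 6.59 in wild type. Its Th3/Th3 values were below all Th3/+ values but overlapped wild type. The difference from wild type was −0.72 (SE 0.22) and missed the threshold (limma adjusted p = 0.0597); it passed in 7 of the 19 alternatives, over a range of 0.0165 to 0.185, among them without Th3/Th3 replicate 1 (0.0165) and without wild type replicate 2 (0.0323). The other probe set gave 5.74, 5.74 and 5.66 in Th3/Th3, 5.84, 5.95 and 5.64 in Th3/+, and 5.70, 5.74 and 5.81 in wild type, all overlapping, with a difference of −0.04 (limma adjusted p = 0.855). Which transcripts each probe set reads was not analysed here. Cbfa2t2, the remaining ETO-family gene, is no member and was picked after its values were seen: it read 5.60, 6.13 and 5.62 in Th3/Th3, 5.18, 5.56 and 5.30 in Th3/+, and 5.53, 5.53 and 5.22 in wild type, a difference from wild type of 0.35 that did not pass (limma adjusted p = 0.212).

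Gfi1b (chr2:28609450-28621982), the repressor needed for both red cell and platelet formation, read 9.90, 9.15 and 9.45 in Th3/Th3, 9.81, 9.84 and 9.71 in Th3/+, and 10.30, 9.94 and 10.22 in wild type. All Th3/Th3 and all Th3/+ arrays were below all wild type arrays, and Th3/Th3 overlapped Th3/+. Th3/Th3 was 1.57-fold lower against wild type (log2 difference −0.65, SE 0.18, limma adjusted p = 0.0473). Th3/+ differed from wild type by −0.37 and did not pass (limma adjusted p = 1). This was the least stable of the 6 calls, lost in 12 of 19 alternatives (range 0.0084 to 0.148), including without any single array other than Th3/Th3 replicate 1: 0.132 and 0.119 without Th3/Th3 replicates 2 and 3, 0.0629, 0.0753 and 0.0723 without Th3/+ replicates 1, 2 and 3, and 0.148, 0.0587 and 0.131 without wild type replicates 1, 2 and 3 (limma adjusted p).

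Across the 11 probe sets, all 11 differences between Th3/Th3 and wild type were below 0, with a median of −0.56, where the median of all probe sets tested was 0. The exception was Ldb1 with arrays left out, at 0.02 without Th3/Th3 replicate 2 and 0.06 without wild type replicate 1. For 6 of the 11 every Th3/Th3 array was below every wild type array, against 12.1% of all probe sets; the same held for 6 of the 11 against Th3/+, where it held for 9.93% of all. The count called ranged from 3 to 7 when 1 array was left out, being 3 without Th3/Th3 replicate 2, wild type replicate 1 or wild type replicate 3. Against Th3/+, 3 of the 11 fell in Th3/Th3 (Lyl1, Lmo2 and Runx1t1; 27.3%, where 3.26% of all probe sets were called lower), and 5 without Th3/Th3 replicate 1. Both comparisons share the Th3/Th3 arrays. The counts with 1 array left out stand without the share of all probe sets called in the same fits. For Th3/+ against wild type limma called 0 of the 11, and 0 had an unadjusted p under 0.05, in a comparison where 0.0282% of all probe sets were called. In that comparison the arrays did not overlap for 2 probe sets, those of Tal1 and Gfi1b, both lower in Th3/+ (3.22% of all probe sets).

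**Figure D3:**
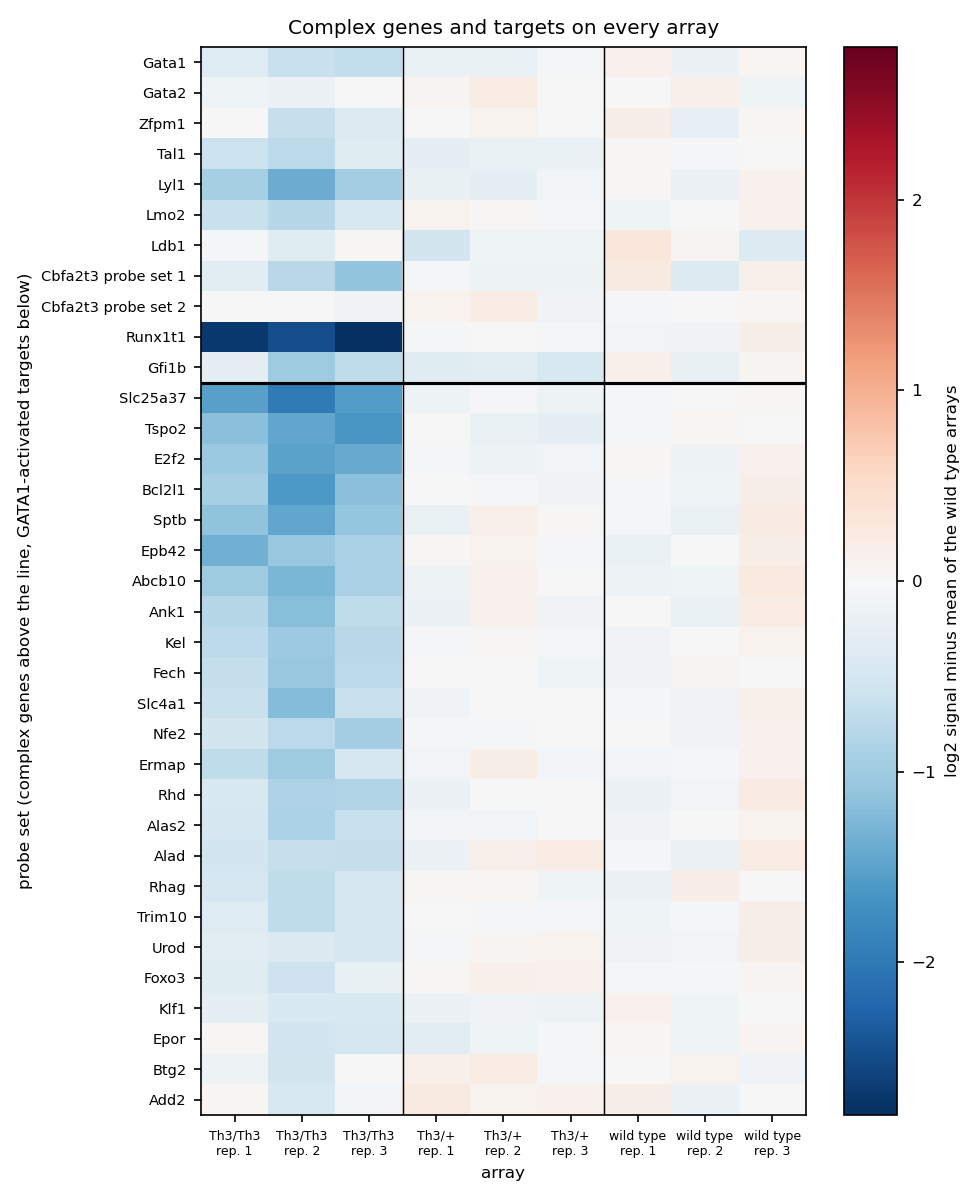
Log2 values of the 11 member probe sets, above the line, and the 24 tested activated targets of GATA1, below it, each minus the mean of its wild type arrays (blue lower, red higher); columns are the 9 arrays in the order Th3/Th3, Th3/+ and wild type. The rows of Runx1t1 and Lyl1 separate the Th3/Th3 arrays from the rest, while those of Ldb1 and Gata2 do not.

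The values of the 3 Th3/Th3 arrays were compared for these genes, with the share of all probe sets beside each count. The lowest Th3/Th3 value was on replicate 2 for 7 of the 11 probe sets (33.5% of all) and on replicate 3 for 4 (33.7%). It was on replicate 1 for 0 (32.8%). Replicate 1 held the highest Th3/Th3 value for 5 of the 11 (46.6% of all). With 11 probe sets, none of the counts in this paragraph was tested against its share. Th3/Th3 replicate 1 and Th3/+ replicate 1 also stood apart from the other arrays on the second principal component. Leaving both out gave 7 members called lower against wild type in place of 6. The share of all probe sets called in that fit is not given here. The SD was larger in Th3/Th3 than in wild type for 8 of the 11 probe sets (59.0% of all). Some arrays carried exactly equal values, which held for 5 of the 11 probe sets, against 50.3% of all. In 2 of them, Tal1 and one of Cbfa2t3, the equal values were those of Th3/+ replicates 2 and 3, and in the other 3 they lay between genotypes.

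Other genes of the same machinery were counted in lists, with 1 probe set per gene. Of 21 DNA-bound partners and cofactors, 19 could be tested, and 1 fell and 0 rose in Th3/Th3 against wild type, with a median difference of −0.01. That is 5.26%, near the 4.98% of all probe sets called lower. The gene that fell was Ep300, an acetyltransferase that acts as a coactivator, at 8.07, 8.53 and 8.80 in Th3/Th3, 9.05, 9.45 and 9.32 in Th3/+, and 9.06, 9.17 and 9.27 in wild type (log2 difference −0.70, limma adjusted p = 0.0438). That count was 0 without Th3/Th3 replicate 2, Th3/+ replicate 2 or 3, or any 1 of the wild type arrays. Klf1, the erythroid factor that binds CACCC elements, read 9.41, 9.24 and 9.23 in Th3/Th3, 9.49, 9.55 and 9.51 in Th3/+, and 9.77, 9.54 and 9.65 in wild type. Its arrays did not overlap between Th3/Th3 and wild type, but the difference of −0.36 did not pass (limma adjusted p = 0.061).

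Of 26 genes for corepressor enzymes and the NuRD complex, 23 could be tested. In Th3/Th3 against wild type 1 fell (4.35%, beside 4.98% of all probe sets called lower). Only 1 rose, where 7.31% of all probe sets were called higher. The median difference was −0.08. Rbbp4, a histone-binding subunit of several deacetylase complexes, read 10.15, 9.73 and 9.90 in Th3/Th3, 10.62, 10.89 and 10.93 in Th3/+, and 10.64, 10.74 and 11.10 in wild type, a 1.86-fold fall (limma adjusted p = 0.00576). Sin3b, a scaffold for deacetylases, was higher in Th3/Th3, at 6.64, 6.90 and 6.64. It read 6.34 on each Th3/+ array and 6.19, 5.98 and 6.08 in wild type. The rise against wild type was 1.56-fold (limma adjusted p = 0.00432). Its Th3/+ values were exactly equal, and this SD of 0 enters the estimate of spread that all comparisons share. The direct partners of GFI1B gave differences of 0.09 for Kdm1a, which encodes LSD1, −0.08 for Rcor1, which encodes CoREST, and −0.28 for Hdac1, and none passed (limma adjusted p = 0.801, 0.887 and 0.224).

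**Figure D4:**
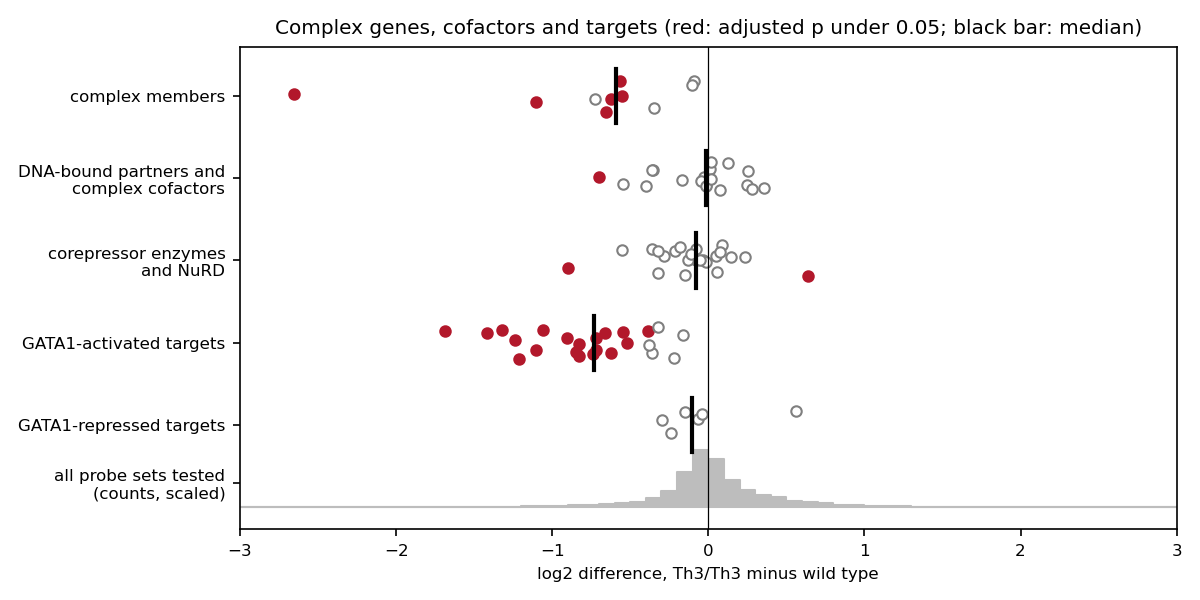
Log2 differences between Th3/Th3 and wild type for each gene of the complex and of the 4 other lists, 1 point per gene, with the list's median as a black bar, filled red points called, and a histogram of all probe sets tested at the bottom. The 10 member genes have a median of −0.59; activated targets lie between −1.69 and −0.16, with 19 of 24 called lower, while the partner and corepressor lists lie around 0.

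Most of the listed activated targets of GATA1 fell in Th3/Th3. The list was chosen with earlier results of these data known, so its share of calls is a description. Of 28 listed genes 24 could be tested; 19 fell in Th3/Th3 against wild type (79.2%, beside 4.98% of all probe sets), 0 rose, and the median difference was −0.73 (range −1.69 to −0.16). Slc25a37, the mitochondrial iron importer mitoferrin 1, read 11.23, 10.77 and 11.18 in Th3/Th3, 12.61, 12.69 and 12.60 in Th3/+, and 12.72, 12.74 and 12.79 in wild type, a difference of −1.69 (limma adjusted p = 5.11e-05). Tspo2, an erythroid membrane protein of the translocator family, differed by −1.41 (limma adjusted p = 0.000215), and the blood group antigen gene Kel by −0.85 (limma adjusted p = 0.000538). The cell cycle factor E2f2 differed by −1.32, and the membrane skeleton genes Epb42 and Sptb by −1.11 and −1.22 (limma adjusted p = 0.000567, 0.000781 and 0.000945). The genes that did not pass were Klf1, given above, Foxo3 (−0.38, limma adjusted p = 0.0769), Epor (−0.32, 0.272), Btg2 (−0.22, 0.34) and Add2 (−0.16, 0.568). Against Th3/+, 20 of 24 fell in Th3/Th3 (83.3%, beside 3.26% of all probe sets), and for Th3/+ against wild type limma called 0, with 0 at an unadjusted p under 0.05.

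Genes known to be repressed by GATA1 gave no call. Of 9 listed genes 6 could be tested, limma called 0 in either direction for Th3/Th3 against wild type, 0 had an unadjusted p under 0.05, and the median difference was −0.11. Spi1, which encodes the myeloid factor PU.1, differed by −0.30 (limma adjusted p = 0.224) and Vim, the intermediate filament vimentin, by −0.24 (limma adjusted p = 0.298). Kit, Myb and Ccnd2 differed by −0.07, −0.04 and −0.15, and Myc by 0.56 (limma adjusted p = 0.674, 0.802, 0.472 and 0.321). Hhex, Cdk6 and Rgs18 did not pass the filter. Kit, Spi1 and Myb passed it with low signal, at genotype means of 4.68 to 4.76, 4.74 to 5.08 and 5.08 to 5.21. The filter value was 4.52 to 4.62.

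The values come from bulk samples, so fewer cells of a type and less RNA per cell cannot be told apart. The summed linear level of the 7 measured erythroid markers (of 8 listed) was lower in Th3/Th3, while Th3/+ lay within the wild type range. It was 13145 to 16157 in Th3/Th3, 24605 to 25590 in Th3/+ and 24099 to 27790 in wild type. Of the 7 markers, 5 were called lower in Th3/Th3 against wild type (71.4%). Of all probe sets 4.98% were called lower and 7.31% higher in that comparison. All of the 7 except Tfrc are also listed as activated targets of GATA1, so this sum is not independent of the target counts. Megakaryocyte markers, whose cells also use this complex, summed over 8 of 11 to 722 to 843 in Th3/Th3, 1002 to 1212 in Th3/+ and 923 to 1254 in wild type, with 1 of 8, Gp5, called lower. Macrophage markers summed to 350 to 386 in Th3/Th3, 398 to 618 in Th3/+ and 396 to 540 in wild type, with 1 of 9, C1qb, called lower and Mrc1 at or under the filter value on all arrays. These calls are 12.5% of the megakaryocyte and 11.1% of the macrophage markers, but each is only 1 gene. The part of the lower erythroid, megakaryocyte and macrophage sums in the members' differences was not tested. For mast cells and granulocytes the sums were 413 to 584 in Th3/Th3, 414 to 700 in Th3/+ and 398 to 905 in wild type, 0 of 6 called, with Cpa3, Mcpt8, Ms4a2, Fcer1a and Ctsg at or under the filter value. Endothelial sums were 201 to 219 in Th3/Th3, 209 to 221 in Th3/+ and 204 to 215 in wild type, with Kdr, Cdh5, Tek and Emcn at or under it. Stem and progenitor sums were 156 to 171 in Th3/Th3, 165 to 174 in Th3/+ and 173 to 178 in wild type, with Cd34, Meis1, Mecom and Angpt1 at or under it. Hepatoblast markers summed to 1265 to 2086 in Th3/Th3, 1348 to 2591 in Th3/+ and 1390 to 1954 in wild type, and 0 of 9 were called.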

How the data were processed

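The deposited table holds 1 log2 value per probe set and array for 9 arrays. The submitters' processing notes name MAS5 and no version, and say nothing of background correction or summary method. The authors' log2 values were used as deposited, since array medians lay between 4.97 and 5.05. Arrays have no read depth, and their number limits the precision. Of 35556 probe sets, 6617 in the control block (identifiers below the first annotated one) were left out, and 21789 of the rest have 1 gene symbol. A probe set was kept if at least 3 of its 9 values exceeded the 40th percentile of the array (17742 kept).

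All 9 arrays entered a single model, with a mean for each genotype, in limma 3.58.1 (R 4.3.3; lmFit, eBayes with trend), two-sided, with Benjamini-Hochberg adjustment over the kept probe sets and calls at 0.05; the script was tested on simulated data. In a list, a gene was read by its kept probe set with the highest mean. Members and lists were chosen with earlier results of these data known. Genes named from a list are up to 6 called in Th3/Th3 against wild type by smallest adjusted p, or the 2 with the smallest p where fewer than 2 were called; all members are named, and other list genes were named after their values were seen. Nearest genes are the 3 with the smallest root mean square difference of centred log2 values. Alternatives were other filters, quantile or median scaling, no trend, array weights, only the groups compared, a replicate block, Xist as a covariate, and arrays left out.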

Additional observations from a re-analysis of the deposited data

How the results depend on the processing

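Under 19 alternatives (18 for the midpoint) no called difference changed sign; 8 uncalled member differences did so in 1 to 4 alternatives each, among them Ldb1 in Th3/Th3 against wild type in 2. No member was called in Th3/+ against wild type under any of them. Members called in Th3/Th3 against wild type, 6, became 3 with only the groups compared, 3 to 7 without 1 array and 5 to 7 otherwise. Those called against Th3/+, 3, were 3 to 5 without 1 array and 2 to 4 otherwise; the member called against the midpoint, 1, became 0 without the 2 arrays apart on the second component and 0 to 1 without 1 array. Among partners and cofactors the call count of 1 became 0 with no filter, with each array centred on its median, with only the groups compared or with Xist as a covariate; it became 2 with the filter at the 60th percentile, no trend, array weights or without those 2 arrays, and was 0 to 1 without 1 array. Activated targets gave 18 to 21 calls without 1 array, corepressor enzymes 2 and repressed targets 0. With replicate numbers as a replicate block 7 members were called against wild type, 3 against Th3/+, and 1 repressed target in place of 0. Same-numbered arrays' deviations correlated between −0.13 and 0.36. The correlation was over 0.1 in all pairs of replicates 1 and 3 and in 0 of 3 pairs of replicate 2. On the second principal component all replicate 1 arrays were positive, at 25.5 (Th3/Th3), 20.5 (Th3/+) and 7.7 (wild type). All replicate 3 arrays were negative, at −14.9, −13.0 and −12.0 in the same order. The labels name no litter, batch or pairing, so the block was not used as the main model. A shared litter or batch was not tested. The cause of the changes in call counts was not tested. Counts under the alternatives are given without the share of all probe sets called in the same fit, so they are no result about the members alone.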

Other observations

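The genes with the most similar pattern to each fallen member were taken from 12897 others, as the root mean square difference of log2 values centred on their own mean over the 9 arrays. Nearest to Gata1 were Smtnl1 (0.0698), Sema4b (0.0828) and Acta1 (0.0870). Nearest to Tal1 were Anp32b (0.0752), Srsf5 (0.0828) and Luc7l2 (0.0841). Lyl1 was closest to Ptp4a3 (0.0855), Fam89b (0.0926) and Dmtn (0.102), the last of which encodes the red cell membrane skeleton protein dematin. Lmo2 was closest to Cpox (0.0681), an enzyme of haem synthesis, Eif2ak1 (0.0732), the haem-regulated kinase of translation initiation, and Rnf10 (0.0741). Gfi1b was closest to Plekho2 (0.117), H1f5 (0.126) and Slc41a3 (0.136). Runx1t1 had no gene as near as the other members did: Sowaha (0.313), Pepd (0.324) and Slc2a1 (0.364), the glucose transporter gene. The distance is not scaled to the size of a gene's change, which was largest for Runx1t1 among the members. Its larger distances are therefore no trait of its pattern. All of these values share the 9 arrays and the same 3 genotypes, and they are a description with no test.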
